A study of Arabidopsis thaliana with 12 samples.

Results

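Transcripts of 4 Arabidopsis thaliana genes of ascorbate synthesis and plastid thiol redox control were compared between plants given staurosporine and plants given water before ascorbate. The genes are GLDH (AT3G47930), NTRC (AT2G41680), AT3G52960, which encodes peroxiredoxin IIE, and AT2G04700, which encodes the catalytic subunit of ferredoxin-thioredoxin reductase. They were chosen by name and each has 1 probe that the platform annotation assigns to it alone, so 4 of 692 single-gene probes are described, out of 3439 probes on the array. No probe annotated with several genes holds any of the 4. No genome build is named for these arrays, so positions are left out.

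All 12 arrays hold total RNA of wild-type plants of ecotype Columbia 0. The 6 arrays of the water group had 4 h of water, then 25 mM ascorbate at pH 5.5 for 4 h. The 6 arrays of the staurosporine group had 2 µM staurosporine, a broad inhibitor of protein kinases, for 4 h, then the same ascorbate treatment. Every group received ascorbate, so no value here is a response to ascorbate itself. The labels name no tissue or plant age, and they do not say that arrays came from separate plants, so p-values measure only the spread between these arrays, which may be technical. In RNA from whole samples, fewer cells of a type and less RNA per cell cannot be told apart.

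Ascorbate is made in plants from sugar nucleotides, and GLDH, an enzyme of the inner mitochondrial membrane, carries out the last step and passes its electrons to cytochrome c. In chloroplasts, ferredoxin-thioredoxin reductase moves electrons from photosynthetically reduced ferredoxin to thioredoxins through an iron-sulfur cluster and a disulfide, and the thioredoxins then reduce cysteines of target enzymes. NTRC is a second route in the same compartment: it joins an NADPH-dependent thioredoxin reductase and a thioredoxin in 1 protein and reduces 2-Cys peroxiredoxins. Peroxiredoxin IIE is a plastid peroxidase that uses a cysteine to reduce peroxides. GLDH therefore belongs to antioxidant supply, NTRC and AT2G04700 to thiol reduction, and AT3G52960 to peroxide removal.

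GLDH was the only one of the 4 genes whose same-number ratio of staurosporine to water was above 1 at every number. Of all probes, 30.3% had all 6 such ratios in 1 direction. The mean normalized intensity of GLDH was 0.290 ± 0.132 after water and 0.404 ± 0.126 after staurosporine (SD, n = 6 arrays each). Its fitted change of 1.52-fold did not pass the test. NTRC averaged 0.409 ± 0.0771 after water and 0.355 ± 0.146 after staurosporine. AT3G52960 averaged 0.265 ± 0.132 and 0.283 ± 0.0606, and AT2G04700 averaged 0.165 ± 0.0763 and 0.132 ± 0.0900, in the same order. In the limma comparison of 12 arrays, none of the 4 genes passed an adjusted p of 0.05, while 22.9% of all probes passed in either direction. None had an unadjusted p under 0.05 there either, against 35.1% of all probes, and in none did the groups of 6 arrays stand apart, against 14.5% of all probes. The 22.9% includes probes at 0 on some or all arrays, while the 4 genes were above 0 on every array. A fit of the 2584 probes above 0 on all arrays called 848 of them at an adjusted p of 0.05 and none of the 4. Intensities are relative values on a scale with no absolute unit, normalized between arrays, and are compared only for the same probe.

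**Figure D1:**
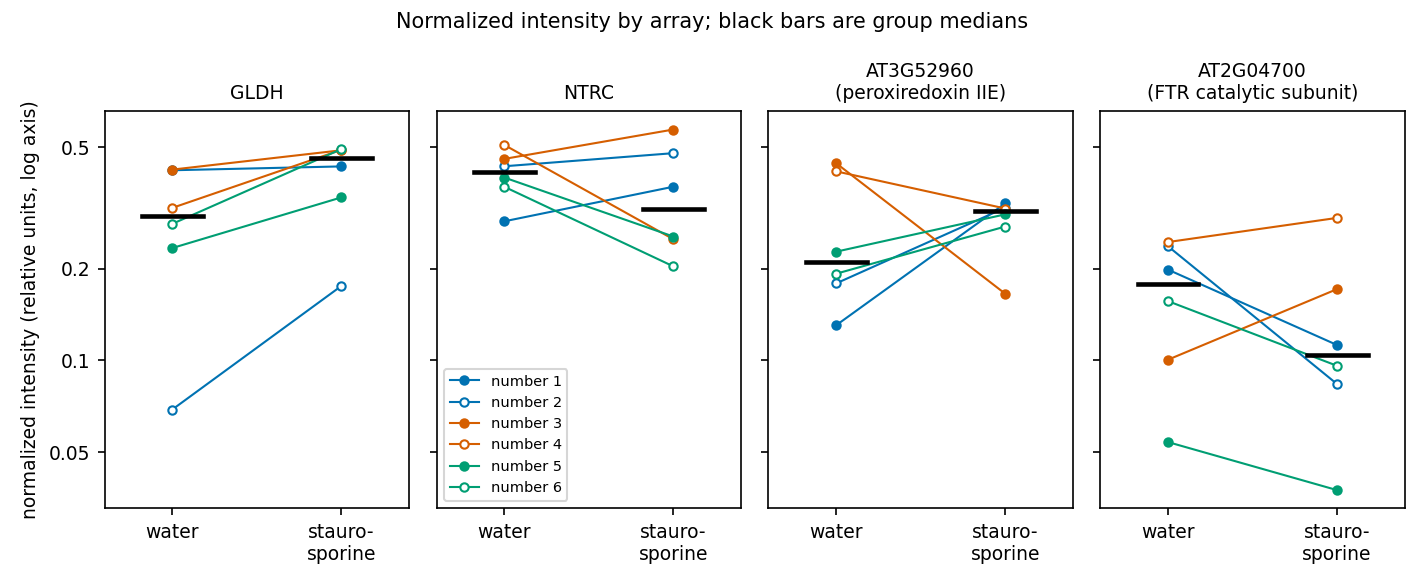
Normalized intensity (relative units, log axis) of the 4 genes on each of the 12 arrays, with a line joining the water and the staurosporine array of the same number and a black bar at each group's median. The groups overlap in every panel, GLDH is lowest on the arrays of number 2 in both groups, and AT2G04700 is lowest on the arrays of number 5 in both.

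Within a group, numbers 1 and 2, 3 and 4, and 5 and 6 form pairs (number pairs below) with Spearman correlations of the deposited values between 0.889 and 0.987, against 0.825 to 0.917 for other arrays of a group. Each gene is therefore also given with the number pairs averaged, 3 against 3, where 0.262% of all probes passed. Same-numbered arrays of both groups deviated together as well, and limma with that number as a block called 23.5% of all probes at an adjusted p of 0.05 and 40.0% at an unadjusted p of 0.05.

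For GLDH the deposited intensity ran from 0.0227 to 0.417 after water, with a median of 0.294, and from 0.183 to 0.581 after staurosporine, with a median of 0.456. After normalization the lowest, median and highest values were 0.0690, 0.298 and 0.422 after water. They were 0.176, 0.461 and 0.493 after staurosporine. The groups overlapped, and both lowest values belonged to replicate 2, so the lowest array of each group carries the same number.

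The normalized ratios of staurosporine to water for GLDH were 1.03, 2.54, 1.16, 1.55, 1.47 and 1.76 at numbers 1 to 6. Those of the deposited values were 1.71, 8.06, 1.09, 1.45, 1.71 and 1.91. All 6 normalized ratios were above 1. An exact sign-flip permutation test of them over the 6 numbers gave a two-sided p of 0.03125, the smallest it can give. Over the whole array 30.3% of probes had all 6 ratios in 1 direction, so this evenness was common here. That test takes the 6 numbers as independent, although the arrays within a number pair were alike. The averaged ratios of the 3 number pairs were 1.62, 1.34 and 1.61. An exact permutation test of 3 pairs against 3 gave p = 0.2, where the smallest possible p is 0.1.

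The fitted log2 change of GLDH was 0.60 ± 0.43 (SE), with a limma adjusted p of 0.328 and a 95% interval of -0.34 to 1.54. An exact permutation test of the 12 arrays without regard to number gave p = 0.245, where the smallest possible p is 0.00216. With the replicate number as a block the interval narrowed to 0.14 to 1.06, with an unadjusted limma p of 0.0180 and an adjusted p of 0.0652. Within number pair 1 and 2 the 2 water arrays differed by 2.61 log2 units and the 2 staurosporine arrays by 1.30. Without water replicate 2 the log2 change was 0.22 (limma adjusted p 0.604), and without number 2 of both groups, a setting chosen after seeing the data, it was 0.44 (0.172). The size of the GLDH difference therefore moved by more than 1.5 times with 1 array, while its sign was positive in all 27 other settings run. Several of these settings, such as the block and the averaged number pairs, cannot change the estimate, and the others share most arrays.

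NTRC, the NADPH-driven reductase, had deposited intensities of 0.163 to 0.512 after water, with a median of 0.414, and of 0.213 to 0.539 after staurosporine, with a median of 0.386. Its normalized values had a lowest, median and highest of 0.286, 0.416 and 0.509 after water. After staurosporine they were 0.203, 0.313 and 0.572. The staurosporine arrays enclosed the whole range of the water arrays, with replicate 3 above and replicates 4, 5 and 6 below it.

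The NTRC ratios at numbers 1 to 6 were 1.30, 1.10, 1.25, 0.491, 0.640 and 0.548. Numbers 1, 2 and 3 lay above 1 and numbers 4, 5 and 6 below, so the fitted log2 change of -0.28 ± 0.26 averages ratios of both signs. Its limma adjusted p was 0.442, the 95% interval ran from -0.86 to 0.29, and an exact permutation test of the 12 arrays gave p = 0.320. The 2 staurosporine arrays of numbers 3 and 4 differed by 1.19 log2 units, while the 2 water arrays of those numbers differed by 0.15. The NTRC signal was the steadiest of the 4 after water, where the highest array was 1.78 times the lowest, and the spread after staurosporine was 2.81 times.

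AT2G04700, the catalytic subunit that serves the ferredoxin route, had deposited intensities of 0.0861 to 0.239 after water, with a median of 0.120, and of 0.0854 to 0.259 after staurosporine, with a median of 0.128. The deposited ranges of the groups were thus nearly the same. After normalization the lowest, median and highest values were 0.0540, 0.177 and 0.244 after water, and 0.0375, 0.104 and 0.293 after staurosporine. By normalized value, replicate 5 was lowest and replicate 4 highest in both groups.

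The normalized ratios of AT2G04700 at numbers 1 to 6 were 0.566, 0.353, 1.70, 1.20, 0.696 and 0.614. Those of the deposited values were 1.16, 0.627, 1.56, 1.08, 1.39 and 0.951. The ratio was above 1 at 2 of 6 numbers after normalization and at 4 of 6 before it. The median log2 change over all probes also differed between these scalings, and the gene is set against it further on. The fit gave a log2 change of -0.42 ± 0.50 (limma adjusted p 0.551), a 95% interval of -1.50 to 0.66 and an exact permutation p of 0.452. Without staurosporine replicate 5 it was -0.11 (limma adjusted p 0.899), and with array weights it was 0.14 (0.879). In this fit AT2G04700 had the widest spread of the 4. Its residual SD was 0.93 log2 units against 0.80 for GLDH, 0.56 for AT3G52960 and 0.46 for NTRC. With the number as a block the residual SDs were 0.57, 0.33, 0.69 and 0.45 in the same order, so AT3G52960 was then the widest.

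AT3G52960, peroxiredoxin IIE, had deposited intensities of 0.0559 to 0.438 after water, with a median of 0.234, and of 0.128 to 0.404 after staurosporine, with a median of 0.362. Its normalized values had a lowest, median and highest of 0.130, 0.210 and 0.443 after water, and of 0.165, 0.308 and 0.327 after staurosporine. The water arrays fell into their number pairs, with 0.130 and 0.179 at numbers 1 and 2, 0.443 and 0.417 at numbers 3 and 4, and 0.227 and 0.192 at numbers 5 and 6. After staurosporine 5 arrays lay between 0.275 and 0.327 and replicate 3 lay alone at 0.165.

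The normalized ratios of AT3G52960 at numbers 1 to 6 were 2.51, 1.77, 0.373, 0.755, 1.33 and 1.43. Those of the deposited values were 6.63, 3.72, 0.293, 0.671, 1.59 and 1.72. Numbers 1, 2, 5 and 6 lay above 1 and numbers 3 and 4 below, with averaged ratios of 2.11, 0.531 and 1.38 for the 3 number pairs. The fit gave a log2 change of 0.21 ± 0.31 (limma adjusted p 0.646), a 95% interval of -0.47 to 0.89 and an exact permutation p of 0.530. Without numbers 3 and 4 the log2 change was 0.72 and passed (limma adjusted p 0.0350), and without numbers 1 and 2 it was -0.21 (0.679). Both label groups hold all 3 number pairs, so the main comparison keeps all 12 arrays. It counts the arrays within a number pair as separate, which the labels do not settle. This gene has no direction common to the number pairs.

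**Figure D2:**
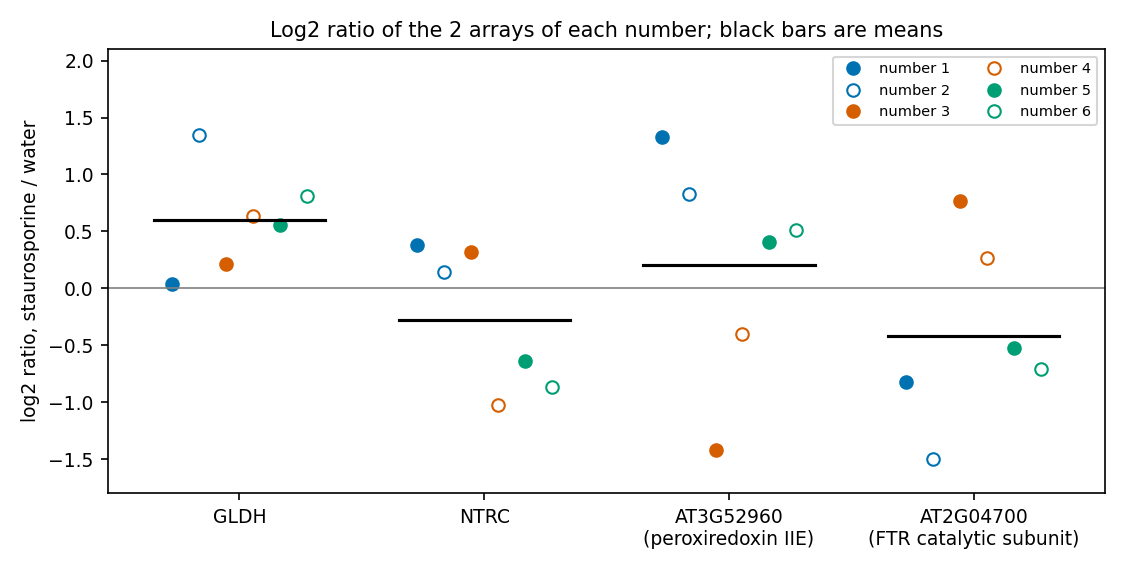
Log2 ratio of staurosporine to water for the 2 arrays that share a number, 6 points for each gene, with the mean as a black bar. All 6 GLDH points lie above 0, while NTRC, AT3G52960 and AT2G04700 have 3, 4 and 2 points above 0, and both arrays of a number pair share a sign in every case but NTRC at numbers 3 and 4.

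The 4 genes did not vary together over the arrays. Pearson's r of their log2 values over the 12 arrays ran from -0.35 for GLDH with NTRC to 0.20 for GLDH with AT3G52960, and was 0.18 for the reductases NTRC and AT2G04700. These r describe 12 arrays that include number pairs, and carry no test. The median log2 change of the 4 was -0.04, beside -0.12 for all 3439 probes.

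The 95% intervals give the sizes of change that these arrays leave outside. In the comparison of 12 arrays, rises above 2.92-fold and falls beyond 1.27-fold lay outside the interval of GLDH. For NTRC these limits were a 1.22-fold rise and a 1.81-fold fall, and for AT3G52960 a 1.85-fold rise and a 1.39-fold fall. For AT2G04700 they were a 1.58-fold rise and a 2.84-fold fall. With this quantile normalization, NTRC and AT3G52960 thus had intervals inside a 2-fold change in both directions, as did 39.3% of all probes. GLDH and AT2G04700 did not. With the number as a block, NTRC alone did, against 42.0% of all probes. The limits were then a 1.23-fold rise and a 1.81-fold fall for NTRC, and a 2.05-fold rise and a 1.53-fold fall for AT3G52960. They were a 1.22-fold rise and a 2.18-fold fall for AT2G04700, and the GLDH interval ran from a 1.10-fold to a 2.09-fold rise.

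With number pairs averaged, the limits widened to a 1.41-fold rise and a 2.09-fold fall for NTRC and to a 2.37-fold rise and a 1.78-fold fall for AT3G52960. None of the 4 genes then had an interval inside a 2-fold change, against 21.2% of all probes. Those of GLDH were a 2.89-fold rise and a 1.26-fold fall, and those of AT2G04700 a 1.95-fold rise and a 3.49-fold fall. With number pairs as random blocks, a 5.55-fold rise of GLDH and a 4.56-fold fall of AT2G04700 mark the far ends of the intervals. A 2-fold rise of NTRC lay outside its interval in each of these 4 fits, whereas a 2-fold fall lay outside over 12 arrays and with the number as a block but not in the other two. These limits are for quantile normalization. Over 12 arrays, the upper log2 limit of AT3G52960 was 1.72 with no normalization, 1.19 with median centring and 1.04 with cyclic loess. A 2-fold rise of AT3G52960 thus lay outside its interval only with quantile normalization. The GLDH upper limits were 2.39, 1.96 and 1.92 in that order. AT2G04700 was inside a 2-fold change with none (-0.58 to 0.82) and median centring (-0.95 to 0.61), and NTRC in each. The intervals hold for 1 gene at a time, and a p that misses the threshold does not show that a transcript stayed the same.

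**Figure D3:**
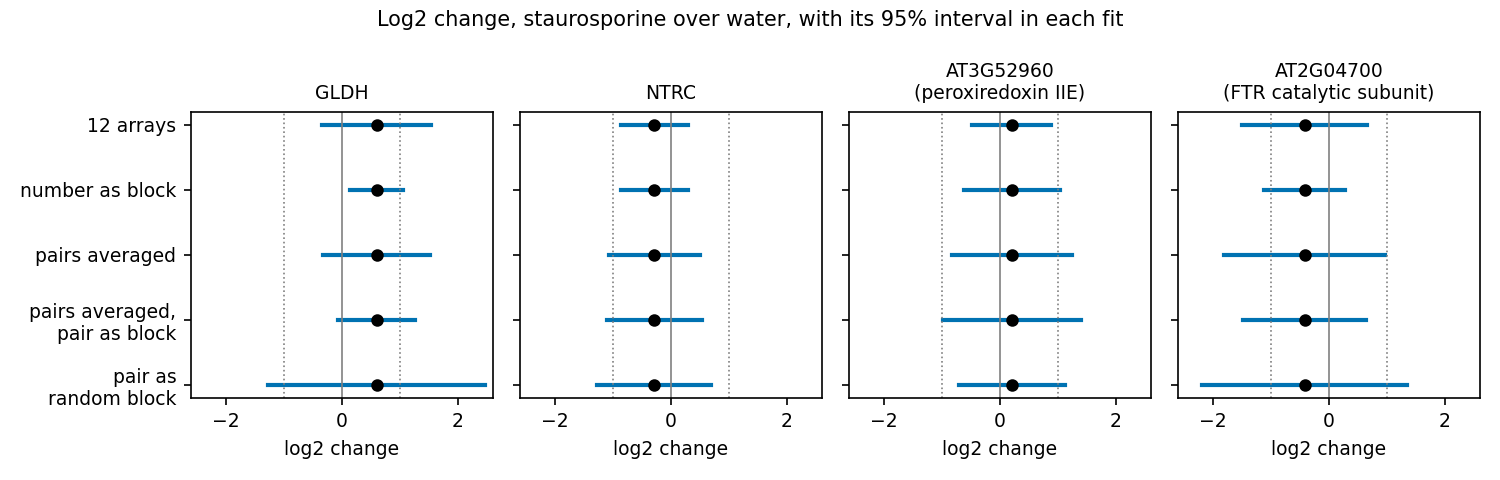
Log2 change of staurosporine over water (point) and its 95% interval (bar) for the 4 genes in 5 fits that treat the replicate numbers differently, with dotted lines at -1 and 1. The estimate is the same in all 5 fits and the width is not: the GLDH interval runs from 0.14 to 1.06 with the number as a block and from -1.27 to 2.47 with number pairs as random blocks.

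The change needed to pass the threshold was large for these probes. Given each gene's own error and the largest p that passed over the array, a change of at least 1.72-fold for NTRC, 1.91-fold for AT3G52960, 2.45-fold for GLDH and 2.80-fold for AT2G04700 would have passed in the comparison of 12 arrays. With the number pairs averaged the sizes were 7.75-fold, 15.3-fold, 11.5-fold and 38.1-fold in the same order, because few probes passed there. Of the 2584 probes above 0 on all arrays, 93.0% had a smaller 12-array residual SD than GLDH and 96.4% a smaller one than AT2G04700. The shares were 64.6% for NTRC and 78.3% for AT3G52960, and the median residual SD of those probes was 0.39 log2 units. The absolute change was larger than that of 64.7% of these probes for GLDH, 48.6% for AT2G04700, 34.5% for NTRC and 26.0% for AT3G52960. All 4 genes were above 0 and above the floor set for low values on all 12 arrays. The nearest to its floor was GLDH on water replicate 2, at 1.03 log2 units above it.

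Over all probes the median log2 change stood at -0.12 with quantile normalization, 0.19 with none, -0.10 with median centring and -0.01 with cyclic loess. Relative to that median, GLDH stood 0.72, 0.84, 0.84 and 0.69 log2 units higher in the same order. AT3G52960 stood 0.33, 0.43, 0.43 and 0.24 higher. NTRC stood at -0.16, -0.11, -0.11 and -0.20, and AT2G04700 at -0.30, -0.07, -0.07 and -0.41. Median centring shifts the change of every probe by the same amount, so against the median it must equal no normalization and is no separate check. With none and with median centring, that median equals the change of SBPASE, whose probe was at 0 on all 12 arrays. There it comes from the floors set for low values and is not the change of a typical detected probe. The sign against that median was the same for each gene with quantile normalization, none and cyclic loess. With no further normalization the plain log2 changes of NTRC and AT2G04700 turned to 0.07 and 0.12.

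**Figure D4:**
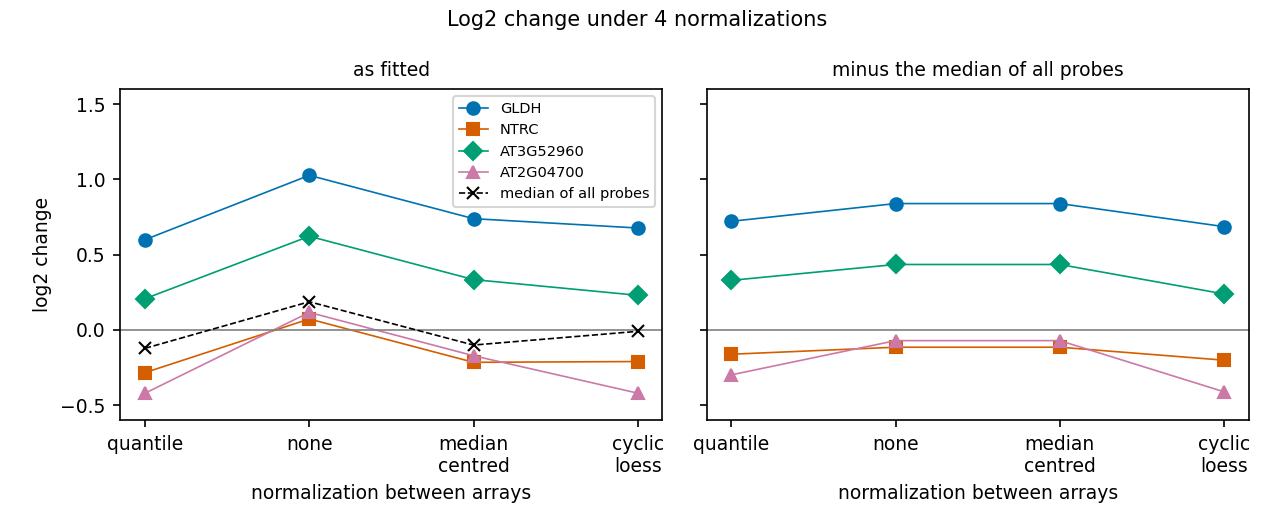
Log2 change of the 4 genes under 4 ways of normalizing between arrays, as fitted (left, with the median of all probes as a dashed line) and after subtracting that median (right). GLDH and AT3G52960 lie above that median and NTRC and AT2G04700 below it in each. On the right they run from 0.84 for GLDH to -0.41 for AT2G04700. With none and with median centring the median comes from the floors set for low values. No normalization and median centring give equal values on the right by construction.

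Few other genes of these pathways could be read by name. Of 92 genes on 5 lists, 8 had a probe of their own and 7 of these were above 0 on any array, the 4 genes described here included. In limma over the 12 arrays none of the 7 passed as higher and none as lower, beside 22.9% of all probes. An unadjusted p under 0.05 was found for 1 of them, beside 35.1% of all probes, and the same gene passed with the number as a block, where 23.5% of all probes passed. Their median log2 change was 0.21, beside -0.12 for all probes. None of the 20 genes of the ascorbate and glutathione cycle, and 1 of the 10 of ascorbate synthesis, had a probe of its own.

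The gene with the low p was AT5G58330, the chloroplast NADP-dependent malate dehydrogenase, which thioredoxin switches on by reduction and which exports reducing power as malate. Its normalized values had a lowest, median and highest of 0.177, 0.288 and 0.546 after water and of 0.425, 0.589 and 0.815 after staurosporine. The groups overlapped, and the ratio was above 1 at 6 of 6 numbers, where 30.3% of all probes had all 6 in 1 direction. The log2 change was 0.88 ± 0.30. Its limma adjusted p was 0.0540 over 12 arrays, 0.0265 when the number was a block and 0.333 after averaging number pairs.

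SRX (AT1G31170), the sulfiredoxin that restores overoxidized 2-Cys peroxiredoxins, ran from 0.109 to 0.394 after water and from 0.292 to 0.594 after staurosporine. It had a log2 change of 0.58 ± 0.32 (limma adjusted p 0.215), and the ratio was above 1 at 5 of 6 numbers. PRK, the thioredoxin-regulated phosphoribulokinase of the Calvin cycle, ran from 0.329 to 0.863 after water and from 0.462 to 0.602 after staurosporine, and was higher after staurosporine at 1 of 6 numbers. The 95% interval of its log2 change was -0.81 to 0.20. SBPASE, another Calvin cycle enzyme under thioredoxin control, was listed at 0 on all 12 arrays and has no fold.

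The single-gene probes most like each of the 4 genes were sought among 525 that were above 0 on all arrays. For GLDH they were AT4G09040, AT1G35340 and AT1G76050, with Pearson's r of 0.936, 0.865 and 0.840 over the 12 arrays. For NTRC they were AT5G64150 (r = 0.844), AT4G13200 (0.797) and AT2G03200 (0.770). For AT3G52960 they were AT5G65220, a plastid ribosomal protein gene (r = 0.752), AT3G56130 (0.747) and AT1G74070 (0.741), and for AT2G04700 they were AGL26 (0.806), AT2G31800 (0.786) and AT1G65090 (0.767). These are the highest of 525 values for each gene and are given as a description. None of these 12 genes passed an adjusted p of 0.05 in limma, beside 22.9% of all probes. They were picked for following 4 genes that did not pass, so this is no separate result. The nearest was AT1G35340 at a log2 change of 1.10 (adjusted p 0.0797).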

How the data were processed

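Total RNA of 12 Arabidopsis samples was measured on single-channel arrays, and the sample titles give the groups and the numbers 1 to 6. The deposited values are linear intensities, 1 for each probe of an array, from 0 to 100, with 8 arrays reaching the upper end. How the authors processed these intensities is not stated in the labels, and the scale has no absolute unit. Array medians ran from 0.252 to 0.486, and 10.3% to 15.2% of the probes of an array were at 0.

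Intensities were quantile normalized between arrays, values at 0 or under the 1st percentile of an array's positive normalized values were set to that floor, and log2 was taken. The comparison used limma 3.58.1 (R 4.3.3; lmFit, eBayes, two-sided) on all 3439 probes with Benjamini-Hochberg adjustment, and the fit was tested on simulated data. Intervals are those of the moderated fit. Same-numbered arrays correlated across groups in their deviations from the group means. The r was 0.297 to 0.545 over all probes and 0.158 to 0.273 over probes above 0 on all arrays. Arrays of different number were not compared across groups, so these r do not tell whether the number or only the number pair is shared. A limma fit with number as a block was also run. For GLDH this changed the unadjusted p and not the call. The number of arrays limits the precision.

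Of the 3439 probes, 692 have 1 annotated gene, 870 have several and 1877 have none listed, and 690 of the 692 matched the TAIR10.1 gene table. Named genes are the 4 chosen genes, the genes of 5 lists with a probe of their own and the 3 most like genes of each. The genes, lists and tests were chosen with earlier results of these data known. No sequence table was used here.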

Additional observations from a re-analysis of the deposited data

Results flagged for a closer look

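The normalized intensity of AT3G52960 was 0.165 on staurosporine replicate 3, and the nearest array of that group had 0.275. On the linear scale this 1 array lay far from the other 5. It was the only such case among 14 groups of 6 arrays checked, where chance gives about 1 in 20. The check did not cover the log2 values that the fits use. On the log2 scale GLDH lay at -3.86 on water replicate 2, with the nearest water array at -2.10. On staurosporine replicate 2 it lay at -2.51, with the nearest array of that group at -1.55. Without staurosporine replicate 3 the log2 change of AT3G52960 was 0.35 (limma adjusted p 0.405).

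Among 9 probes that carry several annotated genes with at least 1 on the 5 lists, 1 passed over the 12 arrays, beside 22.9% of all probes. This was probe 2399, with 2 genes of the thioredoxin list, which the comparisons above do not use. All 6 water arrays list it at 0, and it lay between 0.443 and 0.547 after staurosporine. The fitted log2 change of probe 2399 of 4.12 rests on the floor given to values of 0 and is no measured size. The limma adjusted p was 1.02e-06, and 0.0138 with number pairs averaged, where 0.262% of all probes passed. The water values in both fits are assigned floors, so these p-values do not measure a spread of water signal. A further probe with the same number of genes of that list, probe 3746, was at 0 on 2 water arrays and 1 staurosporine array and had an adjusted p of 0.388. With the replicate number as a block 2 of the 9 passed, beside 23.5% of all probes. The other was probe 3511, with 2 genes of the ascorbate and glutathione cycle, at a log2 change of -1.65 (limma adjusted p 0.0160 with the block, 0.0837 without it and 0.296 after averaging number pairs). It was at 0 on 2 staurosporine arrays. No gene is named from these probes.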

How the results depend on the processing

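Each log2 change was recomputed under 27 other settings. Fits that only block or average the numbers, and the one on probes above 0 on all arrays, leave each log2 change as it is by construction. GLDH kept its sign in all 27 settings. NTRC turned to 0.073 and AT2G04700 to 0.12 without further normalization, and AT2G04700 to 0.14 with array weights. AT3G52960 turned to -0.21 without numbers 1 and 2 of both groups, and passed at 0.72 (limma adjusted p 0.0350) without numbers 3 and 4. That was the only call gained. The replicate block left the log2 changes as they were (GLDH 0.60, NTRC -0.28, AT3G52960 0.21, AT2G04700 -0.42) and changed no call among the 4 genes. Leaving out 1 array in turn gave 0.22 to 0.82 for GLDH, -0.44 to -0.15 for NTRC, 0.03 to 0.38 for AT3G52960, -0.73 to -0.11 for AT2G04700, and 614 to 751 called probes. The count of called probes, 788 of 3439, was 809 with the replicate block, 9 with number pairs averaged, 2 with the pair also as a block and 191 with the pair as a random block. It was 473 without numbers 1 and 2 of both groups and 377 without numbers 5 and 6. The cause of these differences was not tested. Signal over background was not analysed here.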
